A study of Mus musculus with 12 samples.

Results

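The 10 genes described here encode proteins that astrocytes secrete or shed and that are known to act on synapses. They are 4 thrombospondins (Thbs1, Thbs2, Thbs3 and Thbs4), SPARC and its relative SPARC-like 1 or hevin (Sparc and Sparcl1), 3 glypicans (Gpc4, Gpc5 and Gpc6) and the bone morphogenetic protein (BMP) antagonist chordin-like 1 (Chrdl1). They were chosen by name from the 24421 entries of the gene table, with earlier results of these data known, and all 10 were present. RNA was sequenced from GFP-positive cells sorted from the cerebellum of Aldh1l1-GFP mice at postnatal day 1 (P1), P7, P14 and P28, with 3 libraries per age and 12 in all. All groups shared the reporter genotype, the C57/BL6J background and the absence of any treatment, and mice of both sexes were used. Sex-linked transcripts were not balanced over the ages. Xist, which is high in females, had 14.4 to 28.9 normalized counts in the P1 libraries and 18254 to 22155 in the P14 libraries. The Y-linked Ddx3y had 624 to 837 at P1 and 0 to 1.06 at P14. In these mice GFP is driven by the promoter of the astrocyte gene Aldh1l1, so that the sorted cells are those in which this promoter is active, and all cerebellar astrocyte types are pooled. Whether the 3 libraries of an age came from separate animals is not given in the sources used here, and the p-values measure the spread between these libraries.

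Astrocyte-secreted proteins are known to act at different steps of synapse formation. Thrombospondins are large calcium-binding matrix proteins that promote structurally normal but postsynaptically silent excitatory synapses through the calcium channel subunit alpha2delta-1 (Cacna2d1). Hevin bridges adhesion molecules of the presynaptic and postsynaptic membranes, and SPARC antagonizes its synapse-forming activity. Glypicans are heparan sulfate proteoglycans held in the membrane by a lipid anchor and released by cleavage. Gpc4 and Gpc6 recruit AMPA-type glutamate receptors containing GluA1 to nascent synapses, and Chrdl1 favors the later arrival of GluA2-containing receptors. In the rodent cerebellum the postnatal weeks studied here span the formation of granule cell, Purkinje cell and interneuron synapses, and most of its astrocytes are Bergmann glia, velate astrocytes of the granular layer and white matter astrocytes.

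Between 6399499 and 14733985 reads per library were assigned to genes, and 14249 to 18051 genes had at least 1 read. The 11 astrocyte markers, led by the glutamate transporters Slc1a3 and Slc1a2, were all detected. Their summed normalized counts lay between 61665 and 78466 at P1 and between 29678 and 54402 at P7. At P14 they lay between 157145 and 193964, and at P28 between 362348 and 423817. Markers of other cells also moved with age. The 5 oligodendrocyte markers, which include Mbp, summed to between 580 and 1446 at P1 and between 19330 and 30242 at P7. They summed to 291045 or more in each P14 library (highest 352276), and at P28 to between 92202 and 131522. The 5 choroid plexus markers, mostly Ttr, ranged from 285 to 752 at P1 and from 47881 to 127520 at P7. They ranged from 880 to 109039 at P14 and from 17749 to 182593 at P28. The 5 neuronal markers, led by Snap25 and Stmn2, lay between 1742 and 4692 at P1 and between 21536 and 39245 at P14. The granule neuron marker Gabra6 had no read at P1, and the granule precursor marker Atoh1 had none at P14 or P28. In these bulk libraries, fewer cells of a type and less RNA per cell cannot be told apart. The part of these other cells in the results below was not tested.

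**Figure D1:**
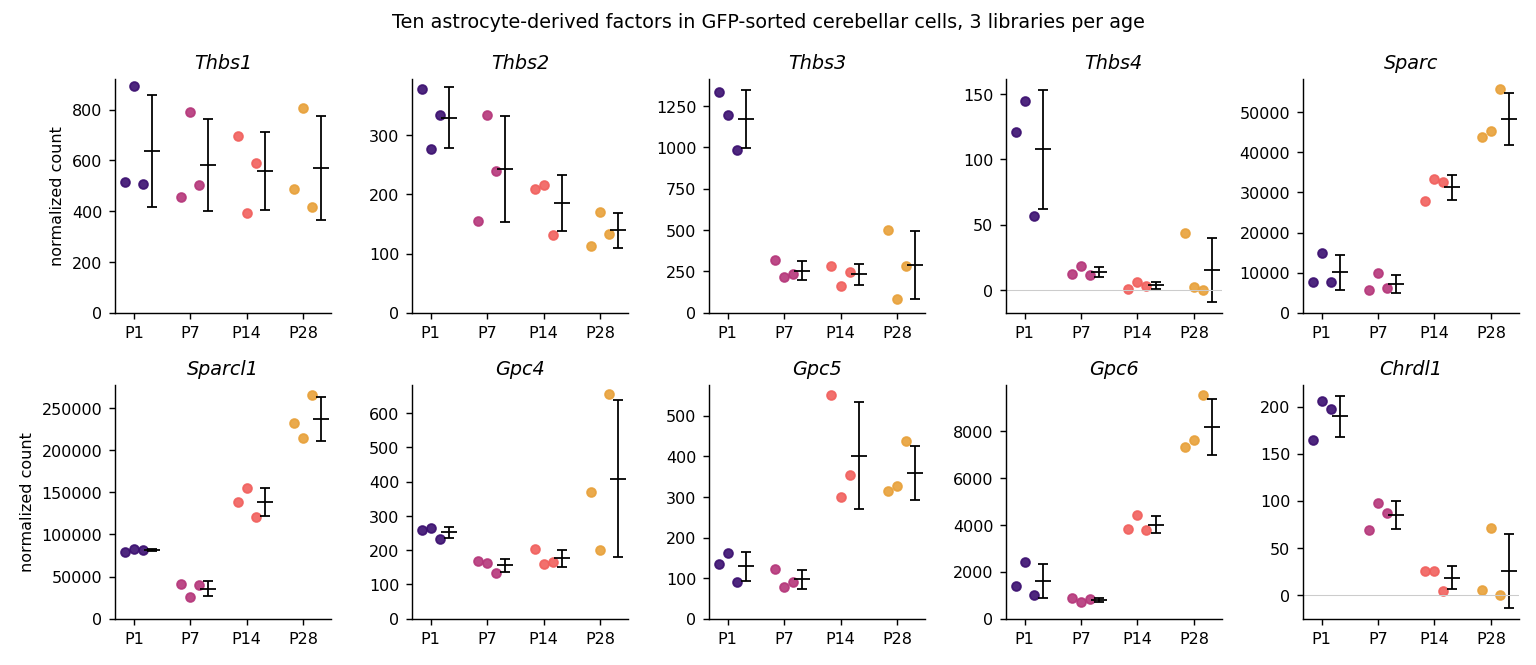
Normalized counts of the 10 genes in each of the 12 libraries, on linear axes that include 0 (the SD whiskers of Thbs4 and Chrdl1 at P28 reach below it), with 1 panel per gene and age on the horizontal axis. Points are single libraries, and the bar and whiskers are the mean and SD of the 3 libraries of an age. Sparc, Sparcl1 and Gpc6 reached their highest level at P28, and Thbs2, Thbs3, Thbs4 and Chrdl1 had theirs at P1.

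The 10 genes separated into a set that was higher in the mature cerebellum and a set that was higher in the newborn. Between P1 and P28, Sparc, Sparcl1, Gpc5 and Gpc6 rose and Thbs2, Thbs3, Thbs4 and Chrdl1 fell, while Thbs1 and Gpc4 did not pass the test. A gene was called changed at an adjusted p under 0.05 (limma, Benjamini-Hochberg over the 15464 genes tested), and 34.6% of all genes tested were called in this comparison, 14.6% as higher and 20.0% as lower. The libraries of P28 lay entirely above those of P1 for the 4 that rose (17.9% of all genes did so) and entirely below for the 4 that fell (24.0%). The median difference of the 10 genes on the log2(normalized count + 1) scale was 0.18, against -0.24 over all genes tested. All 10 passed the filter on low values (10 normalized counts or more in 3 or more libraries). Thbs4 passed it mainly through the P1 libraries (56.8 to 145), where it is high, and the P7 libraries (11.6 to 18.3), which were just above the limit.

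The course was not a steady slope. From P1 to P7, 3 of the 10 genes fell (Thbs3, Sparcl1 and Gpc6) and 0 rose, where 7.70% of all genes were called, 3.47% as higher and 4.24% as lower. All 10 fitted differences were below 0 in this step, with a median log2 difference of -0.81 against 0.04 over all genes, and for 6 of the 10 every P7 library lay below every P1 library (18.2% of all genes), with 0 of the 10 entirely above (20.1%). From P7 to P14, 4 genes rose (Sparc, Sparcl1, Gpc5 and Gpc6) and 0 fell, where 20.9% of all genes were called, 10.8% as higher and 10.0% as lower. The libraries of P14 lay entirely above those of P7 for the same 4 (21.3% of all genes) and entirely below for Thbs4 and Chrdl1 (24.8%), which were not called. From P14 to P28, Sparcl1 and Gpc6 rose further and 0 fell, where 14.4% of all genes were called, 5.68% as higher and 8.76% as lower. The libraries of P28 lay entirely above those of P14 for these and for Sparc (11.7% of all genes), and entirely below for 0 of the 10 (14.5%). The 3 counts of 0 were also 0 at an unadjusted limma p under 0.05 and with DESeq2 and edgeR. From P7 to P14, however, Chrdl1 was called as lower in a limma fit of only these ages and in fits without P28 replicate 2 or 3. The balance of calls over all genes depended on scaling. With scaling by library totals, 1203 genes were called as higher and 2447 as lower from P7 to P14, against 1676 and 1551. The split was 456 and 1936 from P14 to P28, against 878 and 1354, and 1368 and 5134 from P1 to P28, against 2264 and 3086. The consecutive comparisons share libraries and are not independent of each other.

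**Figure D2:**
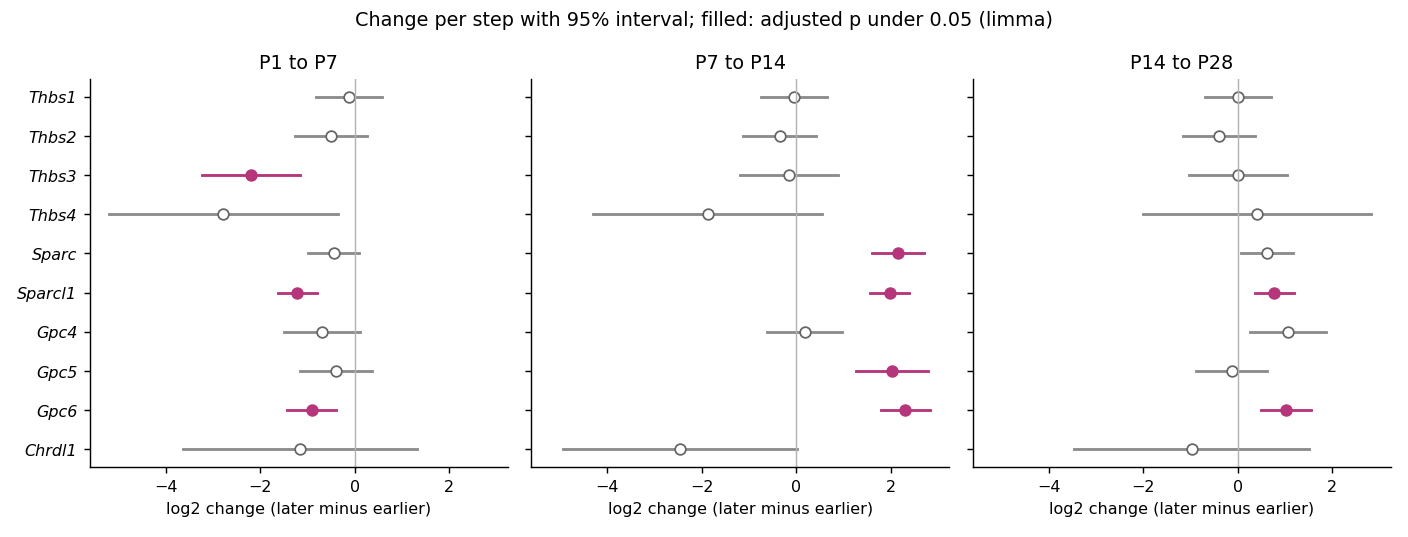
Fitted difference between ages for each of the 10 genes on the log2(normalized count + 1) scale, with 1 panel per consecutive step and whiskers for the 95% confidence interval of the limma fit to 12 libraries. Filled points passed an adjusted p under 0.05. Sparcl1 and Gpc6 passed it in all 3 steps, and Thbs1, Thbs2, Thbs4, Gpc4 and Chrdl1 in none.

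Sparcl1, which encodes hevin, was by far the most abundant of the 10. The 3 libraries of P1 had 79601, 82802 and 81605 normalized counts. They were 41195, 25696 and 40282 at P7. The P14 libraries had 138977, 155342 and 121030, and the P28 libraries 231610, 214097 and 265152. The libraries of the 4 ages did not overlap, and P7 was the lowest age. Sparcl1 fell 2.28-fold from P1 to P7, by 1.22 ± 0.19 (SE) on the log2 scale (limma, adjusted p = 0.00143). It then rose 3.88-fold to P14, with a log2 difference of 1.98 and an adjusted p of 6.96e-06. The rise from P14 to P28 was smaller, with a log2 difference of 0.78 and an adjusted p of 0.0165. This last call was lost without P14 replicate 3 (adjusted p = 0.0726) or P28 replicate 3 (0.0526), when values were scaled by library totals (0.0506), and when the fit held only these ages (0.0560). Over the whole period the log2 difference was 1.54 (adjusted p = 3.44e-05).

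Sparc, the antagonist of hevin at synapses, rose with it in the second week but was not called in the first. It had normalized counts of 7594, 15017 and 7567 at P1 and 5751, 9813 and 6089 at P7. The libraries of these ages overlapped, and replicate 2 was the highest in both. The log2 difference from P1 to P7 was -0.44, with a 95% interval of -0.99 to 0.10 and an adjusted p of 0.398. At P14 the counts were 27786, 33473 and 32523, and at P28 they were 43915, 45271 and 55714. Sparc rose 4.33-fold from P7 to P14, by a log2 difference of 2.15 ± 0.25 (SE), with a limma adjusted p of 3.61e-05. From P14 to P28 every library was higher, but the log2 difference of 0.62 did not pass (adjusted p = 0.115), and among the alternatives run it passed without P1 replicate 2 alone (0.0430). P28 exceeded P1 by 2.33 on the log2 scale, or 4.80-fold (adjusted p = 9.46e-06).

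The 2 Sparc values that stood above their age coincided with markers of vessels and meninges, cells known to express Sparc. The summed counts of 7 endothelial markers, led by Flt1 and Cdh5, were 806, 3735 and 1132 at P1 and 2674, 10468 and 1705 at P7, so that replicate 2 was the highest in both ages. Those of 5 fibroblast and meningeal markers, led by Col1a1 and Col1a2, were 14754, 24912 and 5873 at P1 and 6777, 17811 and 10432 at P7, again highest in replicate 2. The sums of 6 pericyte and smooth muscle markers were 3076, 6928 and 2194 at P1 and 2936, 5320 and 3411 at P7, with the same library on top. From P7 to P14, the step in which Sparc was called, the pericyte and smooth muscle sums also rose without overlap, to between 6105 and 7227 at P14, and 2 of the 6 markers were called as higher (Pdgfrb, adjusted p = 0.0354, and Acta2, 0.0314, by limma). The endothelial sums of P7 replicates 1 and 3 lay below all P14 libraries (4938 to 5719) and that of replicate 2 above them. From P14 to P28, where Sparc was highest, the pericyte and smooth muscle sums went down to between 2379 and 4096, and the fibroblast and meningeal sums went from 6969 to 9688 at P14 down to 3834 to 4612 at P28. The endothelial sums went down to between 2880 and 4112. The sums of 6 microglia markers were 959, 1081 and 449 at P1 and 1437, 1266 and 969 at P7. They also rose without overlap from P7 to P14, to between 1788 and 2775, and lay between 1317 and 1798 at P28. Of these markers, 1 was called as higher from P7 to P14 (P2ry12, adjusted p = 0.00132, by limma). Without P7 replicate 2, the log2 difference of Sparc from P7 to P14 was 2.40 (adjusted p = 2.31e-05). P7 replicate 2 also had the fewest reads of the 12 libraries (6399499). Among the P7 libraries it had the lowest astrocyte marker sum (29678), the highest choroid plexus sum (127520) and the lowest Xist count (90.3). The source of the Sparc reads was not tested.

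Gpc6, a glypican that recruits GluA1-containing receptors, followed the course of Sparcl1 and had the widest rise. The P1 libraries had normalized counts of 1389, 2441 and 1019 and those of P7 863, 717 and 835. In the P14 libraries they were 3825, 4420 and 3765, and in those of P28 7317, 7649 and 9535. No 2 ages overlapped. The step from P1 to P7 had a log2 difference of -0.91 ± 0.25 (SE) and a limma adjusted p of 0.0351. This call rested on few libraries, since it was lost in 7 of the 12 fits that left out 1 library, with differences from -1.20 to -0.57 and adjusted p-values from 0.00571 to 0.129. The 7 left out P1 replicate 1 or 2, P7 replicate 1, 2 or 3, or P14 replicate 1 or 2, and without P1 replicate 2, the highest at P1, the difference was -0.57 (adjusted p = 0.120). Gpc6 then rose 4.97-fold to P14 (log2 difference 2.31, adjusted p = 1.37e-05). It rose again to P28, by 1.02 with an adjusted p of 0.0141, and this call was lost without P14 replicate 3 (0.0547). The difference over the whole period was 2.42, or 5.05-fold (adjusted p = 4.79e-06).

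Gpc5, a related glypican, changed in 1 step only by this test. It had normalized counts of 134, 161 and 90.1 at P1 and 123, 77.2 and 89.9 at P7. They were 552, 300 and 354 at P14 and 314, 327 and 437 at P28. The 2 younger and the 2 older ages did not overlap, whereas the ages within each pair did. The rise from P7 to P14 was 4.16-fold, with a log2 difference of 2.02 ± 0.35 (SE) and a limma adjusted p of 9.55e-04. The differences were -0.40 from P1 to P7 (95% interval -1.16 to 0.36) and -0.13 from P14 to P28 (-0.89 to 0.63). Over the whole period it was 1.50 (adjusted p = 0.00486).

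Gpc4, which like Gpc6 recruits GluA1-containing receptors, was not called in any comparison by limma. Its normalized counts were 258, 264 and 234 at P1 and 170, 164 and 133 at P7. The P14 libraries had 204, 159 and 165, and the P28 libraries 370, 202 and 656, the widest spread. Every P7 library was below every P1 library, with a log2 difference of -0.70 (adjusted p = 0.352, or 0.0438 in a fit of these ages alone). The difference from P14 to P28 was 1.06 with an adjusted p of 0.0737. This step passed with DESeq2 (1.22, adjusted p = 0.0111) and with edgeR (1.20, 0.0498) on the recovered reads, and without P28 replicate 2 (1.49, 0.00870). Without the same library, the difference from P1 to P28 was 0.97 with an adjusted p of 0.0305, against 0.54 and 0.285 with it. Without P28 replicate 3, the highest of the 12, the difference from P14 to P28 was 0.64 (adjusted p = 0.207).

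Thbs3, a thrombospondin that forms pentamers, was the thrombospondin called as lower from P1 to P7. Its normalized counts were 1337, 1193 and 984 at P1 and 318, 213 and 235 at P7. The P14 libraries had 285, 163 and 249, and the P28 libraries 498, 82.6 and 284. Every P1 library lay above every later one, and the 3 later ages overlapped. Thbs3 fell by 2.20 ± 0.48 (SE) on the log2 scale from P1 to P7, 4.59-fold between the means (limma, adjusted p = 0.0114). The call was lost without P1 replicate 1 (0.0574) or P7 replicate 2 (0.0522). The later steps had differences of -0.15 (95% interval -1.19 to 0.88) and 0.01 (-1.03 to 1.05). From P1 to P28 the difference was -2.35 (adjusted p = 0.00194), and it ranged from -2.91 without P28 replicate 1 to -1.62 without P28 replicate 2. The exons of Thbs3 share 318 bases with those of Mtx1 on the opposite strand, 6.59% of their length. Mtx1 was not called in the step from P1 to P7 (log2 difference -0.33, adjusted p = 0.879).

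Thbs4, another pentameric thrombospondin, was close to the detection limit after the first week. Its normalized counts were 121, 145 and 56.8 at P1 and 11.9, 18.3 and 11.6 at P7. They were 1.06, 6.35 and 3.26 at P14, which stood for 1 to 6 reads, and 43.8, 2.36 and 0 at P28, which stood for 30, 2 and 0 reads. The libraries of P1, P7 and P14 did not overlap, and the range at P28 covered that at P7 and P14. From P1 to P7 the log2 difference was -2.78, with an unadjusted p of 0.0272 and an adjusted p of 0.176 by limma. That step passed with a pseudocount of 10 (adjusted p = 0.0239), in a fit of these ages alone (0.00383) and without P28 replicate 1 (0.0421). From P1 to P28 Thbs4 fell by 4.25 on the log2 scale (adjusted p = 0.00988), and the difference was -5.78 without P28 replicate 1 and -3.04 without P28 replicate 3. The call was lost with edgeR (-2.77, adjusted p = 0.0829) and in a fit of these ages alone (0.0501).

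Thbs2, one of the trimeric thrombospondins first shown to promote synapses, fell from P1 to P28 without a called step between. Its normalized counts were 379, 277 and 335 at P1 and 155, 334 and 240 at P7. The P14 libraries had 209, 217 and 131, and the P28 libraries 113, 171 and 134. Neighboring ages overlapped, but every P28 library lay below every P1 library. The log2 differences of the 3 steps were -0.50, -0.35 and -0.40, with limma adjusted p-values of 0.538, 0.557 and 0.486. From P1 to P28 the difference was -1.25 ± 0.36 (SE) with an adjusted p of 0.0146, and without P1 replicate 1 it was -1.14 (0.0641).

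Thbs1, the other trimeric thrombospondin, was measured at similar levels at all 4 ages. Its normalized counts were 516, 894 and 506 at P1 and 455, 790 and 504 at P7. The P14 libraries had 696, 394 and 589, and the P28 libraries 488, 806 and 418. All ages overlapped. The log2 difference from P1 to P28 was -0.17, with a 95% interval of -0.87 to 0.53 that includes changes of either sign (adjusted p = 0.718). The 3 steps had differences of -0.12, -0.06 and 0.01, with adjusted p-values of 0.922, 0.933 and 0.991. At P1 and P7 the highest Thbs1 value was in replicate 2, the library with the highest endothelial and fibroblast marker sums of its age. The highest value at P28 was also in replicate 2, but its endothelial (3523) and fibroblast (4130) sums were the middle ones of that age. At P14 it was in replicate 1, which had the lowest endothelial (4938) and the highest fibroblast (9688) sum. The source of the Thbs1 reads was not tested.

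Chrdl1, the BMP antagonist that favors GluA2-containing receptors, was highest at P1 and near the detection limit by P14. Its normalized counts were 165, 206 and 198 at P1 and 69.3, 98.2 and 87.6 at P7. The P14 libraries had 25.4, 25.4 and 4.34, and the P28 libraries 5.85, 70.8 and 0. These stood for 4 to 24 reads at P14 and for 4, 60 and 0 reads at P28. P1, P7 and P14 did not overlap, and 1 of the P28 libraries stood far above the other 2. The log2 differences of the first steps were -1.16 (adjusted p = 0.709) and -2.46 (0.161) by limma over all 12 libraries. In fits of only the ages compared they had adjusted p-values of 0.0133 and 0.0229, and the second step also passed without P28 replicate 2 (0.0373) or replicate 3 (0.0408). The last step had a difference of -0.97, and it was 0.48 with DESeq2 and with edgeR on the recovered reads. Chrdl1 fell by 4.59 on the log2 scale from P1 to P28 (adjusted p = 0.00724), and the difference was -6.18 without P28 replicate 2 and -3.10 without P28 replicate 3. The call was lost with edgeR (-2.83, adjusted p = 0.0524).

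Gpc4 and Chrdl1 lie on the X chromosome, and sex-linked transcripts differed with age. Xist, transcribed from the inactive X chromosome of females, had 14.4 to 28.9 normalized counts at P1 and 18254 to 22155 at P14. The P7 libraries had 24667, 90.3 and 25471, and the P28 libraries 24.8, 62.5 and 21061. P28 replicate 3, the P28 library with high Xist, had the highest Gpc4 count (656) and no read of Chrdl1. The other P28 libraries, low in Xist, had 4 and 60 reads of Chrdl1. At P14, where Xist was high in every library, the Gpc4 counts were 204, 159 and 165, below those of P1 (234 to 264). P7 replicate 2, low in Xist, had the middle Gpc4 count of its age (164). The part of sex in the differences of Gpc4 and Chrdl1 was not tested, and between P1 and P14 sex and age cannot be told apart.

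The 250 bases before the annotated start are shown to set genes that fell beside a gene that rose, for the members with a window clear of exons. RefSeq windows on GRCm38.p6 matched 6 of the 10 genes (Thbs2, Thbs3, Thbs4, Sparc, Gpc4 and Gpc5), and the 4 of these that overlap no annotated exon are given, 5′ to 3′ on the strand of the gene. Capitals mark matches, on either strand, to TATAAA (the TATA box), to CCAAT (the CAAT box) and to GGGCGG (the GC box). The windows are chr17:14694263-14694512 (minus strand) for Thbs2, chr3:89214930-89215179 (plus strand) for Thbs3, chr13:92794819-92795068 (minus strand) for Thbs4 and chr14:115091965-115092214 (plus strand) for Gpc5.
Thbs2: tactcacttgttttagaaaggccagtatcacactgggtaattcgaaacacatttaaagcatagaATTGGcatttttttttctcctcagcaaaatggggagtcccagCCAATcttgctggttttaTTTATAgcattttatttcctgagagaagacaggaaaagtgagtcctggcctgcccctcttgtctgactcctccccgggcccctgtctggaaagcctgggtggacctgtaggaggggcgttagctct
Thbs3: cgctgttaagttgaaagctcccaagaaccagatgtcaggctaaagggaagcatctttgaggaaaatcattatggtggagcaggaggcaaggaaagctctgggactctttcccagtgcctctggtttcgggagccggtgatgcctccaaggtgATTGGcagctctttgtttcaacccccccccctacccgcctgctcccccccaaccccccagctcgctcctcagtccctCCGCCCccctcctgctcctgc
Thbs4: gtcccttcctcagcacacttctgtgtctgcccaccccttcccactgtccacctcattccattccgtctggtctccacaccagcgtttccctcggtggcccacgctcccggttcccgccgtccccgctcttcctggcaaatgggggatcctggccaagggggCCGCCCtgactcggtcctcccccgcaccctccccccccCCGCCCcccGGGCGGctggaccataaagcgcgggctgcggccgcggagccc
Gpc5: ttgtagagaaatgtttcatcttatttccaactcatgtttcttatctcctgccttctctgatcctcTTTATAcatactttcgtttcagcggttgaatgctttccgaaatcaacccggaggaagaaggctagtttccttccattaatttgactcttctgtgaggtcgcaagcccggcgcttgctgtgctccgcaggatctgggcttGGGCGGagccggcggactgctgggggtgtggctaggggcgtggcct
The 3 thrombospondin windows, all of genes lower at P28 than at P1, had little in common in these letters. Thbs2 had 1 TATAAA and 2 CCAAT matches and 46.8% G and C, Thbs3 had 1 CCAAT and 1 GGGCGG match and 58.8%, and Thbs4 had 3 GGGCGG matches and 70.8%. Gpc5, which rose, had 1 TATAAA and 1 GGGCGG match and 51.2%. The TATAAA matches lay on the strand opposite to the gene, 126 to 121 bases before the start of Thbs2 and 185 to 180 before that of Gpc5. Of 27025 RefSeq windows of this length, 13% held TATAAA, 34.5% CCAAT and 32.9% GGGCGG, and the median share of G and C was 52.0%. A match is a string of letters and was not tested as a binding site.

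On GRCm38 with GENCODE M21, Sparcl1 lies at chr5:104079111-104113733 and Sparc at chr11:55394500-55423183, both on the minus strand. Gpc5 (chr14:115092215-116525179) and Gpc6 (chr14:116925315-117976544) both lie on the plus strand of chromosome 14. Gpc4 lies at chrX:52053021-52165252 and Chrdl1 at chrX:143285674-143394262, both on the minus strand. Thbs1 lies at chr2:118111876-118127133 and Thbs3 at chr3:89215180-89226837, both on the plus strand, and Thbs2 at chr17:14665500-14694235 and Thbs4 at chr13:92751590-92794818, both on the minus strand. Besides the overlap of Thbs3 with Mtx1, Thbs1 shared 3.43% of its exon length with Gm29233 and Gpc5 2.40% with Gm20713, both on the opposite strand, and the counting is not stated to use strand.

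**Figure D3:**
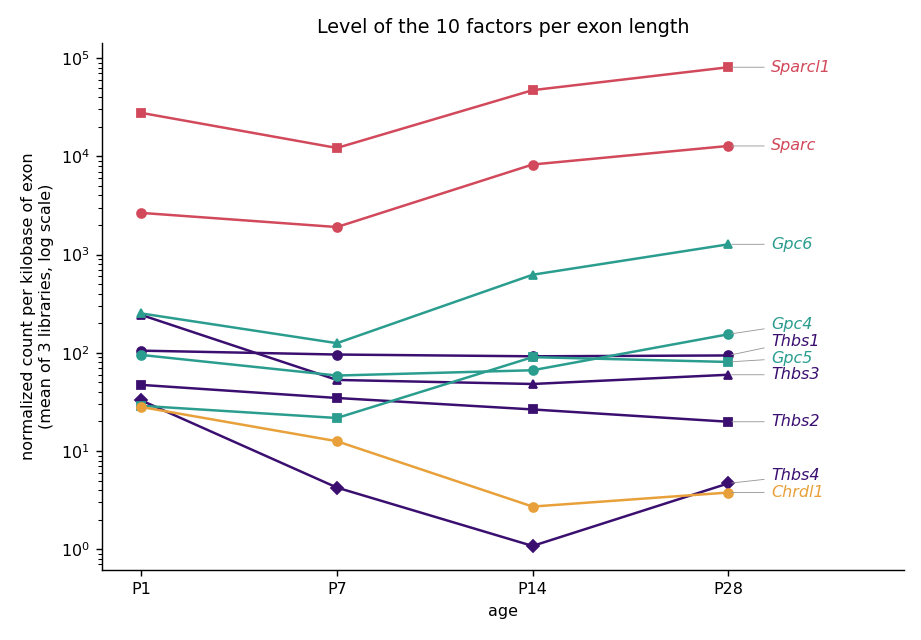
Mean normalized count per kilobase of exon of the 10 genes at each age, on a log axis, 1 line per gene and 3 libraries per point. Sparcl1 and Sparc were the highest 2 at every age, at 80679 and 12751 per kilobase at P28, and Thbs4 or Chrdl1 was the lowest from P7 on.

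Levels of different genes were compared per kilobase of exon (GENCODE M21 union of exons). On this scale Sparcl1 ranked 2, 7, 4 and 2 at P1, P7, P14 and P28 among the 14857 tested genes with an exon length. Its mean level was 27694, 12164, 47140 and 80679 normalized counts per kilobase. Sparc came next with 2656, 1905, 8253 and 12751, and ranks 58, 86, 17 and 21. Gpc6 was at 252 and 125 per kilobase at P1 and P7, and at 623 and 1271 at P14 and P28, moving from rank 1335 to rank 232. The other 7 lay between 1.08 and 243 per kilobase. Among these 7 Thbs3 was highest at P1 (243), Thbs1 at P7 and P14 (96.0 and 92.1), and Gpc4 at P28 (154). Sparcl1, Sparc and the next gene in the order did not overlap between libraries at any age. Lower in the order, neighbors overlapped in these sets. At P1 they were Gpc6 with Thbs3, Thbs1 with Gpc4, and Thbs2, Thbs4, Gpc5 and Chrdl1 each with the next. At P7 they were Gpc6 with Thbs1, and Gpc4, Thbs3, Thbs2 and Gpc5 each with the next. At P14 they were Thbs1, Gpc5 and Gpc4, and at P28 Gpc4, Thbs1, Gpc5, Thbs3 and Thbs2, again each with the next. Chrdl1 and Thbs4 overlapped at P14 and P28. The other neighbors did not overlap.

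Within the families the leading member changed in one and stayed in the others. Of the summed thrombospondin level per kilobase, Thbs3 held 56.9% ± 4.79 (SD, n = 3) at P1 and 29.2%, 28.4% and 32.8% at the later ages. Thbs1 held 24.4% ± 6.05 at P1, then 50.4%, 54.4% and, at P28, 53.5% ± 19.9. The summed thrombospondin level was 428 ± 66.6 per kilobase at P1 and 188 ± 34.5, 168 ± 36.1 and 178 ± 33.3 afterwards. Gpc6 was the leading glypican of the 3 at every age, with 65.3% ± 7.45, 61.0% ± 3.39, 79.9% ± 4.84 and 84.8% ± 3.88. Gpc4 held 26.9% and 28.6% at P1 and P7, and 8.53% and 9.85% at P14 and P28. Sparcl1 held 91.4% of the level of the pair with Sparc at P1 and 85.6%, 85.0% and 86.4% later. These shares are descriptions without a test.

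**Figure D4:**
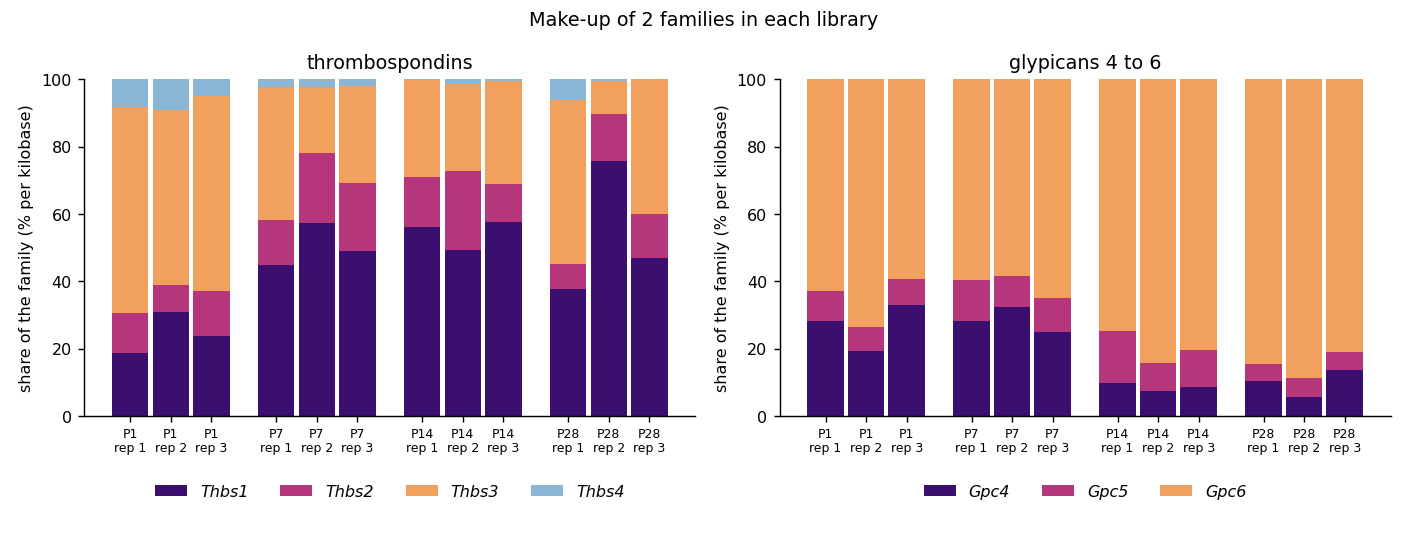
Share of each gene in the summed normalized count per kilobase of its family, in percent, with 1 stacked bar per library for the 4 thrombospondins (left) and for Gpc4, Gpc5 and Gpc6 (right). Thbs3 is the largest thrombospondin share in all 3 libraries of P1, Thbs1 on average at the later ages, and Gpc6 the largest glypican share in every library.

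The rise of the abundant members was set beside the sum of the 11 astrocyte markers, which was higher at P14 and P28 than at P1. The sum is weighted toward its most abundant markers, which at P28 were Slc1a3 (mean 121507) and Slc1a2 (87579). Per 100 normalized counts of the 11 summed markers, Sparcl1 was at 114, 81.0, 78.4 and 60.8 at the 4 ages. Sparc was at 13.8 ± 5.12 (SD, n = 3), 18.6 ± 12.5, 17.9 ± 2.58 and 12.4 ± 0.689, and Gpc6 at 2.20 ± 0.849, 1.89 ± 0.457, 2.28 ± 0.121 and 2.09 ± 0.139. On this scale, compared without a test, the later means of Gpc6 and Sparc lay within 1 SD of their P1 means, and every later library of Sparcl1 lay below the P1 libraries. Gpc5 was at 0.176, 0.222, 0.230 and 0.0917. Thbs1 was at 0.881, 1.50, 0.323 and 0.148, and Gpc4 at 0.351, 0.377, 0.101 and 0.103. Of the early genes, Thbs3 went from 1.62 to 0.591, 0.134 and 0.0754, and Chrdl1 from 0.267 to 0.211, 0.0101 and 0.00670. Of the 11 markers, 7 fell and 2 rose from P1 to P7, 9 rose to P14 and 8 rose to P28 (limma, adjusted p under 0.05). From P1 to P28, 9 rose and 1 fell. The marker that fell was Aldh1l1, whose promoter drives the GFP used for sorting, with means of 5008 at P1 and 2921 at P28 (limma, adjusted p = 0.0286).

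Genes whose course was most like that of a member were taken for the 4 members with the highest mean level per kilobase, by Pearson's r of log2(normalized count + 1) over the 12 libraries among 10212 genes with a mean of at least 100. For Sparcl1 they were Aldoc (r = 0.994), a glycolytic enzyme of astrocytes, Prex1 (0.991) and Cyp2j9 (0.991). Aldoc had 9485, 2039, 20077 and 56146 normalized counts at the 4 ages and shared the low point at P7. For Sparc they were Gpr146 (0.986), Acot11 (0.984) and Prnp (0.982), the prion protein. For Gpc6 they were Hacd3 (0.991), S1pr1 (0.990), a sphingosine 1-phosphate receptor, and Gja1 (0.988), the main astrocyte connexin. For Thbs3, high at P1 alone, they were Pcdhga2 (0.967), Pard3b (0.953) and Zcchc18 (0.935). The 12 points share ages and library depths, and these values are descriptions.

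Known partners of the 10 genes were measured in the same sorted cells, in 5 lists. The counts of each list stand against all genes tested, of which 3.47% were called as higher and 4.24% as lower from P1 to P7, 10.8% and 10.0% from P7 to P14, and 5.68% and 8.76% from P14 to P28. No list was tested as a whole. Of 12 other thrombospondin family members and receptors, 2 rose and 3 fell from P1 to P7, 4 rose and 1 fell to P14, and 2 rose and 2 fell to P28. The median log2 differences of these steps were 0.14, 0.02 and -0.16, against 0.04, -0.09 and -0.12 over all genes, to which the medians of the other lists also compare. The most abundant were Lrp1, a scavenger receptor that binds thrombospondins, and the integrin subunit Itgav. Lrp1 had 6273, 2784, 7144 and 9858 mean normalized counts, with a fall of 1.12 on the log2 scale (adjusted p = 0.00576) and then a rise of 1.37 (5.11e-04). Itgav moved the same way, with log2 differences of -0.79, 0.97 and 0.53 (adjusted p = 0.00423, 3.00e-04 and 0.0281), and the last was lost in 3 of 12 fits without 1 library and with scaling by library totals (0.186). Cacna2d1, the neuronal thrombospondin receptor, rose from a mean of 233 at P1 to 1101 at P7 (2.07, adjusted p = 0.00956) and fell from 938 at P14 to 200 at P28 (-2.23, 0.00549). The first of these calls was lost without P1 replicate 1 (0.0545) or P7 replicate 2 (0.0541). Its relative Cacna2d3 rose from P1 to P7 (2.31, adjusted p = 0.0191), a call lost without P1 replicate 1 or 2 or any 1 of the P7 libraries, with adjusted p-values up to 0.0806. Summed neuronal markers were also higher in the P7 libraries (6695 to 8178) than in those of P1 (1742 to 4692). They were higher still in the P14 libraries (21536 to 39245), but neither gene was called from P7 to P14. The log2 differences of that step were -0.13 for Cacna2d1 (limma, adjusted p = 0.882) and -0.73 for Cacna2d3 (0.411). In the P28 libraries the neuronal sums were lower than in any P14 library (12901 to 17520). The source of the Cacna2d1 and Cacna2d3 reads was not tested.

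Among 11 SPARC family members and hevin partners, 2 fell from P1 to P7, 3 rose and 1 fell to P14, and 2 rose and 1 fell to P28, with median log2 differences of -0.58, 0.39 and 0.01. Nlgn3, a neuroligin also expressed by astrocytes, followed the course of Sparcl1, with means of 3247, 1403, 3629.9 and 6790.4 and log2 differences of -1.25, 1.41 and 0.87 (adjusted p = 0.00198, 2.30e-04 and 0.0133, the last 0.0511 without P14 replicate 3). Smoc1, a matrix protein of the SPARC family, fell from 2667 ± 187 (SD, n = 3) at P1 to 287 ± 111 at P7 (-3.29, adjusted p = 5.02e-04) and to 84.5 at P14 (-1.93, 0.00749). Spock3, a proteoglycan of this family, rose from 349 at P7 to 1200.3 at P14 (1.78, adjusted p = 3.64e-04).

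Among 18 other glypicans, heparan sulfate enzymes and glypican receptors, 1 rose and 3 fell from P1 to P7, 4 rose and 6 fell to P14, and 3 rose and 3 fell to P28. Their median log2 differences were -0.55, 0.03 and -0.31. The receptor phosphatases Ptprd and Ptprs, which bind heparan sulfate, went opposite ways from P7 to P14. Ptprd rose by a log2 difference of 1.14 (adjusted p = 4.93e-04) and Ptprs fell by 1.81 on the log2 scale (1.24e-05). Lrrtm4, a postsynaptic glypican receptor, had a mean of 75.4 at P14 and 13.6 at P28 (-3.53, adjusted p = 0.0224), a call lost with edgeR (0.0637) and without any 1 of the P14 libraries, and the difference was -2.18 without P28 replicate 3. Notum, an enzyme that releases glypicans from the membrane, had 15.2 ± 8.48 at P14 and no read at P28. The log2 difference was -3.88 (limma, adjusted p = 0.0107), and the call was lost with a pseudocount of 10 (0.0512). With each P28 library set at a floor of 3 reads, the P14 mean was 3.82-fold that floor. Leaving out 1 P14 library lowered this to as little as 2.67-fold. The other 3 glypicans of this list are named after their values were seen. Gpc3 fell in each step (log2 differences -1.44, -1.44 and -1.56), with adjusted p-values of 0.0475, 0.0226 and 0.0225. The first call was lost with the replicate block (0.0503), scaling by library totals (0.0565), a pseudocount of 0.1 (0.0551) and no filter (0.0560). Leaving out 1 library ended it in 7 of 12 fits, the second without P7 replicate 2 or 3 or P14 replicate 2 or 3, and the third without P14 replicate 1 (0.0930), and the third was also lost in a fit of those ages alone (0.233). Gpc2 fell from P7 to P14 (-3.26, adjusted p = 0.00443), and Gpc1 fell from P7 to P14 (-1.48, 0.00375) and rose to P28 (1.43, 0.00915).

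A list of 15 genes held chordin family members, the BMP antagonists Nog and Grem1, and BMP ligands and receptors. It also held the glutamate receptor subunit that Chrdl1 acts on. Of the 15 genes, 3 fell from P1 to P7, 1 rose and 1 fell to P14, and 1 rose and 2 fell to P28. Their median log2 differences were -0.0021, -0.065 and -0.43. From P1 to P28, 7 fell and 0 rose by limma (1 rose at an unadjusted p under 0.05, 1 with DESeq2 and 0 with edgeR), where 20.0% of all genes were called as lower and 14.6% as higher. The median log2 difference was -1.22 against -0.24 over all genes. Gria2, which encodes GluA2, had means of 2060.1, 3196, 3354 and 1113 and fell from P14 to P28 (-1.57, adjusted p = 5.54e-04), a step in which Chrdl1 was not called. Bmpr2, a BMP receptor, had means between 4179 and 4986 and was not called in any step. Chrd, the founding chordin, fell from P14 to P28 (-3.08, adjusted p = 0.0299), a call lost without P14 replicate 2 or 3 or P28 replicate 1, with adjusted p-values up to 0.128.

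Among 14 synapse-forming signals of astrocytes, 3 fell from P1 to P7, 3 rose to P14, and 5 rose and 1 fell to P28, with median log2 differences of -0.19, 0.21 and 0.10. The 3 neuroligins of this list were already counted among the hevin partners (1 of them also with the thrombospondins), and they make up 1 of the 3 falls to P7, 1 of the 3 rises to P14 and 2 of the 5 rises to P28. Ptn, encoding the growth factor pleiotrophin, went from 43314 normalized counts at P1 to 10975 at P7 (-1.96, adjusted p = 2.07e-05) and was not called in the later steps. Apoe, the main brain apolipoprotein, followed the course of Sparcl1 with means of 11903, 4574, 17427 and 31926. Its log2 differences were -1.37, 1.97 and 0.86 (adjusted p = 0.00339, 5.85e-05 and 0.0321), and the last was lost without any 1 of the P14 libraries or P28 replicate 3 and with scaling by library totals (0.0777). Tnf, a cytokine also made by microglia, had a mean of 28.7 at P14 and 1.97 at P28 (-3.30, adjusted p = 0.0473), a call lost in 10 of 12 fits without 1 library. In a fit of P14 and P28 alone, the calls of Itgav, Lrrtm4, Gpc1, Chrd and Tnf in that step were lost as well, with adjusted p-values from 0.0596 to 0.195.

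**Figure D5:**
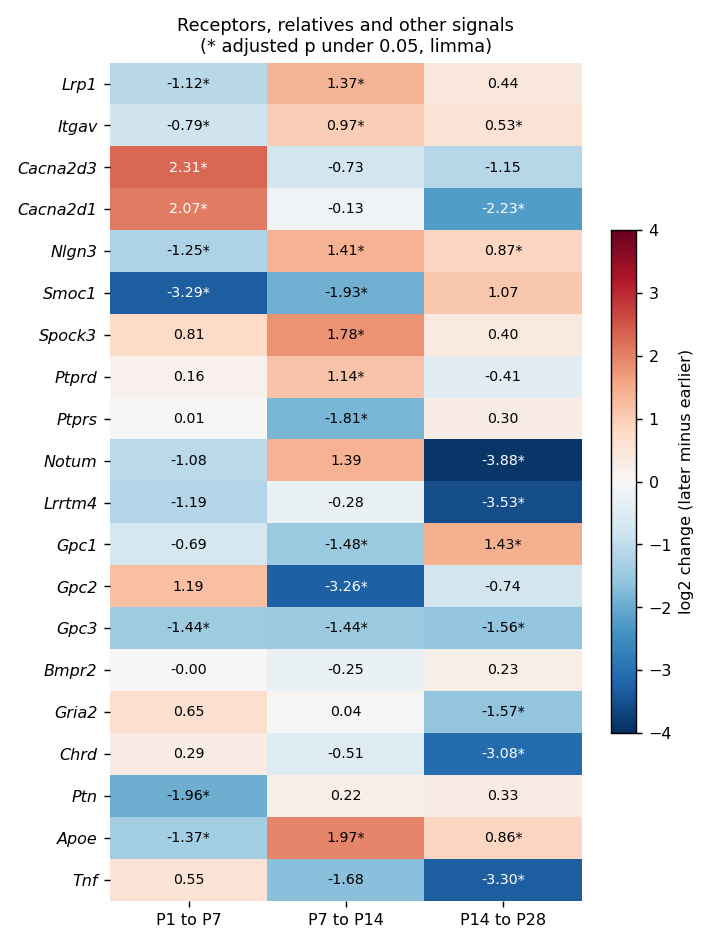
Fitted difference of 20 partner genes (rows) in each consecutive step (columns) on the log2(normalized count + 1) scale, printed in each cell and shown as color from blue (lower at the later age) to red (higher), with an asterisk for an adjusted p under 0.05 (limma). Lrp1, Itgav, Nlgn3 and Apoe share a called fall to P7 and a called rise to P14.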

How the data were processed

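RNA of GFP-positive cerebellar cells was sequenced from 10 ng of total RNA per library. The authors aligned reads to mm10 with STAR (version 2.5.0a), counted them on UCSC transcripts with GenomicAlignments and normalized the counts with DESeq2 (version 1.30.1 in the submitters' processing notes). The deposited signal values are normalized counts, which the authors made by dividing the counts of each library by 1 size factor. Division by that step returned whole reads for 100% of values (tolerance 0.001). Strand use and the treatment of shared reads are not given in the sources used here. Columns were matched through the sample labels, and 0 were unmatched. Since each of the 12 column names holds P28, ages were taken from the labels.

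Differences were tested with limma (version 3.58.1 in R 4.3.3) on values transformed as log2(value + 1), with 1 mean per age, 12 libraries in 1 fit and a variance trend, over the 15464 genes that reached 10 in 3 or more libraries. Genes were called at a Benjamini-Hochberg adjusted p under 0.05 over all genes. Alternatives were DESeq2 (version 1.42.0) and edgeR (version 4.0.16) on the recovered reads, other scalings, pseudocounts and filters, a replicate block, other call rules and leaving out each library. The scripts were tested on simulated data. Libraries of an age differed beyond counting noise (chi-square per gene of 9.92 or more), so none was counted as a duplicate.

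The 10 genes were named by the choice of subject. From each partner list the 2 most abundant genes and the 2 with the largest called change in a step are named. Results of some single genes are left out. The genes and lists were chosen with earlier results of these data known. Exon lengths and loci came from GENCODE M21 on GRCm38, matched by symbol, and windows before start sites from RefSeq. Floors (3 reads) and read numbers cover counting error only.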

Additional observations from a re-analysis of the deposited data

How the results depend on the processing

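Directions and calls of the 10 genes were recomputed with other tests, scalings, pseudocounts, filters, call rules and without each library. The number of them called was 3, 4, 2 and 8 for P1 to P7, P7 to P14, P14 to P28 and P1 to P28. It was 6 from P1 to P7 in a fit of these ages alone, and 1 from P14 to P28 in a fit of those ages alone and with scaling by library totals. Leaving out 1 library gave 1 to 4, 4 to 5, 0 to 3 and 7 to 9. Of all genes, 1191 were called from P1 to P7, against 1812 with DESeq2, 2820 in a fit of these ages alone and 2198 at an unadjusted p under 0.05 with a log2 difference over 0.75. From P14 to P28 the 2232 became 766 and 3725 with the latter 2 choices. Without 1 library the counts over all genes were 651 to 1536, 2173 to 3933, 1242 to 2807 and 3916 to 5751 for the 4 comparisons.

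The following differences, none of them called, changed sign. With scaling by library totals, Gpc4 from P7 to P14 was -0.079, and from P14 to P28 Thbs1 and Thbs3 were each -0.23. With TMM scaling these 2 were -0.0052 and -0.0067. From P14 to P28, Thbs4 was -0.41 with a pseudocount of 0.1 and Chrdl1 was 0.48 with DESeq2 and 0.48 with edgeR. Leaving out 1 library moved Thbs1 between -0.36 and 0.15 from P1 to P7, between -0.23 and 0.19 from P7 to P14, between -0.27 and 0.20 from P14 to P28 and between -0.45 and 0.10 from P1 to P28. It moved Thbs3 between -0.32 and 0.081 from P7 to P14 and between -0.56 and 0.73 from P14 to P28, where Thbs4 ranged from -1.13 to 1.61, Gpc5 from -0.31 to 0.12 and Chrdl1 from -2.57 to 0.52. The cause was not tested.

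Scaling by library totals moved the median log2 difference of all genes to 0.10, -0.34, -0.35 and -0.66 in the 4 comparisons, from 0.04, -0.09, -0.12 and -0.24. Thbs4 and Chrdl1 had no value with a filter of 10 in every library. Deviations of same-numbered libraries of different ages correlated at -0.029 to 0.139, highest between replicate 2 of P1 and of P7. Those of differently numbered libraries correlated at -0.105 to 0.054. The labels do not say what a replicate number shares, and these values do not settle whether the numbers pair the libraries. With the replicate number as a block, 3, 4, 2 and 8 of the 10 genes and 1163, 3153, 2136 and 5334 of all genes were called. At 0 to 30 reads, the levels of Thbs4 and Chrdl1 in most P14 and P28 libraries are limited by counting error.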
